A study of Homo sapiens with 14 samples.

Results

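RH30 tumour cells and LHCN myoblasts shared 43208 regions of open chromatin, and a further 71873 regions were specific to one of the lines. The line-specific regions were 28683 RH30-only regions (15.9% of all regions) and 43190 LHCN-only regions (23.9%), and the shared ones were 23.9% of the 180618 regions in the comparison. Each of the 4 peak lists was trimmed to the 105136 strongest peaks, the length of the shortest list, by the authors' −log10 q, and peaks that overlapped by 1 bp or more were merged into regions. A region was RH30-only when both RH30 libraries had a peak there and neither LHCN library did, LHCN-only in the reverse case, and shared when all 4 libraries had a peak. These 3 classes were set by the presence of peaks, so the counts and percentages are descriptions and no test was put on them. The union of all 14 lists of the study, trimmed alike, held 243368 regions.

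The study profiled chromatin accessibility by ATAC-seq, in which the Tn5 transposase cuts and tags DNA that is not covered by nucleosomes, so that reads pile up into peaks over promoters, enhancers and other open elements. RH30 is a human alveolar rhabdomyosarcoma cell line that carries the PAX3-FOXO1 fusion gene, and LHCN is an immortalised human myoblast line, a muscle precursor in culture. The compared libraries came from RH30 treated with 0.1% DMSO, the vehicle, and from LHCN overexpressing an empty vector, both for 72 h, with 2 libraries each and 100000 cells per library. The remaining libraries, also 2 per group, were RH30 with QC6352 at 200 nM (an inhibitor of KDM4 histone demethylases), RH30 transduced with shCtrl, shKDM4B-813 or shKDM4B-814 hairpins, and LHCN overexpressing PAX3-FOXO1.

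PAX3-FOXO1 joins the DNA-binding part of a muscle developmental factor to the activating part of FOXO1, and it is known to bind enhancers of the myogenic programme and to hold rhabdomyosarcoma cells in a proliferating, incompletely differentiated state. Tumour lines such as RH30 also carry gains of DNA. The segment of chromosome 12 around CDK4, a kinase that drives cells into S phase, is known to be amplified in RH30. In ATAC-seq more copies of a segment give more reads there, so peak calling over a gained segment counts DNA dose as well as openness.

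The lines differed in more than tumour origin. They were grown in different media, and one received a vehicle and the other a vector, so line, medium and vehicle or vector cannot be told apart. Each line is a single line, and the labels do not say whether the 2 libraries of a group were separate cultures, and each p-value therefore speaks only of differences among libraries, which may be technical. Inside the 6 hairpin lists the peak names went against the labels. The lists labelled shCtrl carried sh813, those labelled shKDM4B-813 carried sh814 and those labelled shKDM4B-814 carried shCtrl. All 6 were RH30 by label and by name, so they are used below as RH30 libraries only, and the main results that rest on them are also given from the QC6352 libraries alone.

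The deposited lists held 105136 and 129337 peaks in the RH30 DMSO libraries, against 174811 and 173256 in the LHCN vector libraries. The RH30 lists were both shorter, and the DMSO libraries also matched each other less well. After trimming, the shared part of the union of 2 lists was 0.599 between the RH30 DMSO libraries, against 0.847 between the LHCN vector libraries, and 0.316 to 0.320 for a library of one line with a library of the other. Among regions with a peak in RH30 and none in LHCN, 28683 had it in both RH30 libraries and 40658 in only 1, so 41.4% were found in both. The same share for LHCN was 77.0%, with 43190 regions in both libraries and 12868 in 1. The RH30-only count rested on the demand for both libraries, since it became 51753 without RH30 DMSO replicate 1 and 51377 without RH30 DMSO replicate 2. LHCN-only regions then numbered 47018 and 47420, so the excess of LHCN-only regions turned into an excess of RH30-only ones.

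Trimming left weak peaks in the RH30 lists and removed stronger ones from the LHCN lists. The last peak kept had a −log10 q of 2.54 and 4.83 in the RH30 DMSO libraries, against 17.0 and 16.9 in the LHCN vector libraries. A peak too weak for the trimmed LHCN lists lay in at least 1 deposited LHCN list under 8036 RH30-only regions (28.0%), and none lay under the other 20647 (72.0%). Under LHCN-only regions a dropped RH30 peak was found at 985 (2.28%). Only RH30 DMSO replicate 2 could supply one, since replicate 1 was the shortest list and lost no peak. Replicate 2 also lost fewer peaks than either LHCN list, so the shares of the classes cannot be set against each other. With the lists used as deposited there were 23786 RH30-only and 83139 LHCN-only regions. The excess of LHCN-only over RH30-only regions therefore grew or shrank with the list lengths, while the 50000 strongest peaks of each list gave 17002 RH30-only and 18757 LHCN-only regions. A −log10 q limit of 10 in place of equal lengths gave 10510 RH30-only and 75033 LHCN-only regions.

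Line-specific regions were concentrated among the weaker peaks. The strength of a region was taken as the lower of its within-list percentiles in the 2 libraries of a line, where 100 is the peak with the highest −log10 q. The median was 39.1 for RH30-only regions in RH30 and 36.05 for LHCN-only regions in LHCN, and for shared regions it was 70.0 in RH30 and 69.5 in LHCN. Among regions with a peak in both libraries of a line, RH30-only regions made up 78.2% of the lowest 10 percentiles and 12.7% of the highest 10. For LHCN-only regions the shares were 70.2% and 9.03%. The strongest sites of each line were thus mostly open in the other line too, with 85.6% of the strongest RH30 regions and 88.4% of the strongest LHCN regions shared. In all, 74594 regions had a peak in both RH30 libraries, of which 57.9% were shared, against 94273 in both LHCN libraries, of which 45.8% were shared.

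**Figure D1:**
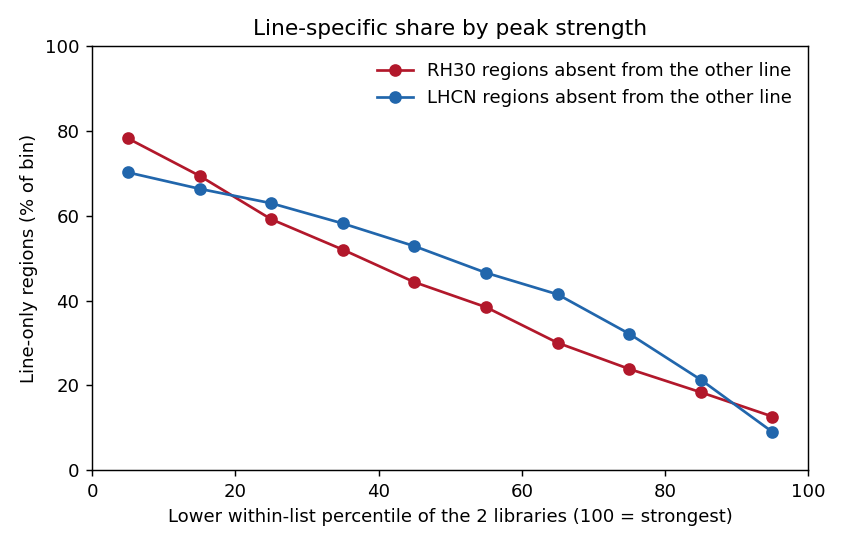
Percentage of regions found in both libraries of a line that had no peak in either trimmed list of the other line, by strength (lower within-list percentile of the 2 libraries), in bins of 10 percentiles, for RH30 (red) and LHCN (blue). A peak dropped by trimming lay in a deposited list of the other line at 28.0% of RH30-only and 2.28% of LHCN-only regions. RH30 DMSO replicate 1 lost no peak in trimming. The RH30 line runs from 78.2% in the weakest bin to 12.7% in the strongest, and the LHCN line from 70.2% to 9.03%.

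The shared regions ranked alike within a line and less alike between lines. Across the 43208 shared regions, Spearman's rho of peak strength was 0.917 between the RH30 DMSO libraries and 0.974 between the LHCN vector libraries, against 0.5004 to 0.508 between a library of RH30 and one of LHCN. These coefficients run over regions of the same genome, which are not independent replicates, and are given as a description. A gap of 50 percentile points or more in favour of both RH30 libraries occurred at 1283 shared regions (2.97%). The same gap in favour of both LHCN libraries occurred at 343 (0.794%).

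The classes differed in width. Merged regions had a median width of 448 bp when RH30-only, 373 bp when LHCN-only and 767 bp when shared. Widths above 1000 bp were reached by 2700 RH30-only regions (9.41%), 1152 LHCN-only regions (2.67%) and 15765 shared regions (36.5%). Merging widens a region when peaks of different libraries are offset, so single peaks were measured as well. Peaks inside RH30-only regions had median widths of 335 and 380 bp in the RH30 DMSO libraries, and peaks inside LHCN-only regions had 346 and 347 bp in the LHCN vector libraries. These values overlapped, so the width gap between the RH30-only and LHCN-only classes was seen in merged regions and not in single peaks. Inside shared regions the medians were 468 and 531 bp in the RH30 DMSO libraries, against 537 and 547 bp in the LHCN vector libraries. In the other libraries, peaks inside RH30-only regions had median widths of 324 to 488 bp in the 8 RH30 libraries, and peaks inside LHCN-only regions had 345 and 350 bp in the LHCN PAX3-FOXO1 libraries. At matched strength the class order of region widths remained in the strongest bin, where RH30-only regions had a median of 940 bp, LHCN-only regions 715 bp, and shared regions 1378 bp in the RH30 ranking and 1318 bp in the LHCN ranking.

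Over whole libraries the median peak widths of the lines did not overlap in the 4 compared libraries, but did in the others. The median peak width of the trimmed lists was 362 and 397 bp in the RH30 DMSO libraries, against 410 and 415 bp in the LHCN vector libraries (exact permutation test, two-sided, p = 0.33, the smallest that 2 against 2 allows). In the libraries that the classes were not built from, it ranged over 307 to 464 bp with a median of 365.5 bp in the 8 other RH30 libraries, against 403 and 403 bp in the 2 LHCN PAX3-FOXO1 libraries (exact permutation test, two-sided, p = 0.4, adjusted p = 0.4 over 4 measures). The LHCN PAX3-FOXO1 values lay within the RH30 range. The difference, RH30 minus LHCN, was -34 bp, and -3 bp without the 6 hairpin libraries. With the lists as deposited the difference turned to 14.75 bp, so no direction is given for it.

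**Figure D2:**
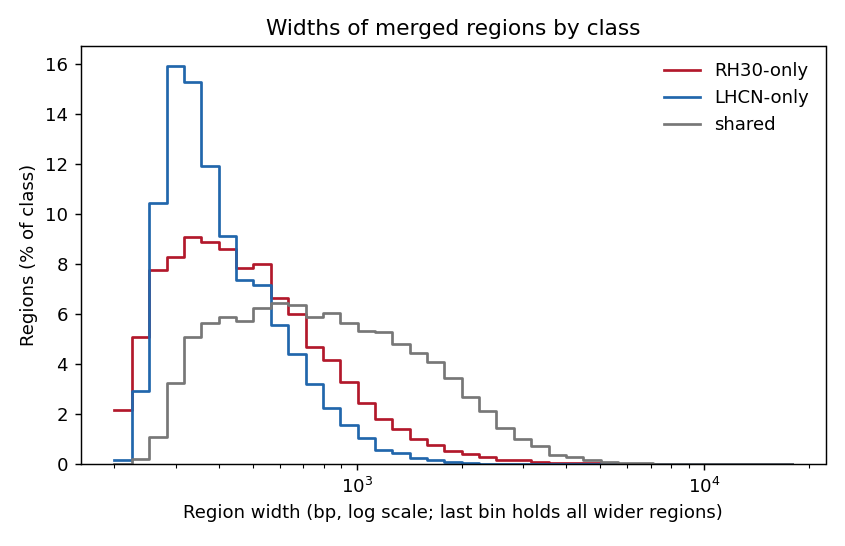
Distribution of region widths (bp, log scale) for RH30-only (red), LHCN-only (blue) and shared (grey) regions, each as a percentage of its class. The medians are 448 bp, 373 bp and 767 bp, and the shared class reaches farthest to the right, with 36.5% of its regions above 1000 bp.

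Very wide regions were confined to few chromosomes in the 4 compared libraries. Of the 27 regions over 10 kb, 22 lay on chromosome 12, 3 on chromosome 17 and 1 each on chromosomes 7 and 22. On chromosome 12, 16 were shared, 5 were RH30-only and 1 had another pattern, and they lay between positions 57478654 and 58707577 (hg19, as are all positions here). No LHCN-only region exceeded 4032 bp. The RH30 DMSO lists held 18 and 19 single peaks over 10 kb, of which 16 and 18 were on chromosome 12, against 0 and 1 in the LHCN vector lists.

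The widest region, chr12:58100191-58289660, spanned 189470 bp and counted as shared, yet the lines filled it in different ways. RH30 peaks covered 98.8% and 99.7% of it in the DMSO libraries, with single peaks of up to 77269 bp and 186079 bp. In the LHCN vector libraries it was broken into 27 and 33 separate peaks, the widest of 2807 and 2888 bp, which covered 9.43% and 9.39%. The 8 other RH30 libraries covered it to between 98.3% and 100.0%, against 9.31% and 8.67% in the LHCN PAX3-FOXO1 libraries. The authors' own fold value per peak, a ratio over the caller's background that is comparable only within a list, reached 404 in both RH30 DMSO lists there, and 53.8 and 50.2 in the LHCN vector lists.

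The same segment held the strongest RH30-only region. Over the 2 Mb from 57000001 to 59000000 on chromosome 12, peaks of the lists trimmed to the shortest of all 14 (93488 peaks) covered 64.5% and 68.3% of the sequence in the RH30 DMSO libraries, against 3.70% and 3.87% in the LHCN vector libraries. The 8 other RH30 libraries covered 60.0% to 75.2% with a median of 65.1%, against 3.48% and 3.67% in the LHCN PAX3-FOXO1 libraries, and the ranges were far apart. In the window from 58000001 to 59000000, 221 of 317 regions (69.7%) were RH30-only and 7 were LHCN-only. The 31 shared regions of that window stood a median of 37.5 percentile points higher in RH30 than in LHCN. The window was ranked on peaks of these same lists, so this value is a description. DNA copy number was not measured, and its part in this segment was not tested. Every fold value was a whole multiple of a single step per list (100% of peaks, tolerance 0.05 of a step), so 1 background value served the whole of each list.

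RH30-only regions were clustered well beyond chromosome 12. Of 2713 windows of 1 Mb with 20 or more peaks, 187 (6.89%) had at least 4 times as many peaks in the RH30 DMSO lists as in the LHCN vector lists. These RH30-dense windows held 4923 RH30-only regions (17.2% of the class), 196 LHCN-only regions (0.454%) and 764 shared regions (1.77%). The reverse ratio was found in 88 windows (3.24%), with 69 RH30-only regions (0.241%), 2138 LHCN-only regions (4.95%) and 296 shared regions (0.685%). The windows were chosen on the counts that define them, so these shares are descriptions. Shared regions were a median of 13.9 percentile points higher in RH30 inside the RH30-dense windows, against a difference of -0.19 elsewhere. The leading RH30-dense blocks differed in this. Their medians ran from -2.08 points (chromosome 2, 2000001 to 5000000) and 1.69 (chromosome 14, 97000001 to 100000000) to 37.5 (chromosome 12, 58000001 to 59000000). Inside the LHCN-dense windows the same difference, RH30 minus LHCN, was -12.1 points.

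**Figure D3:**
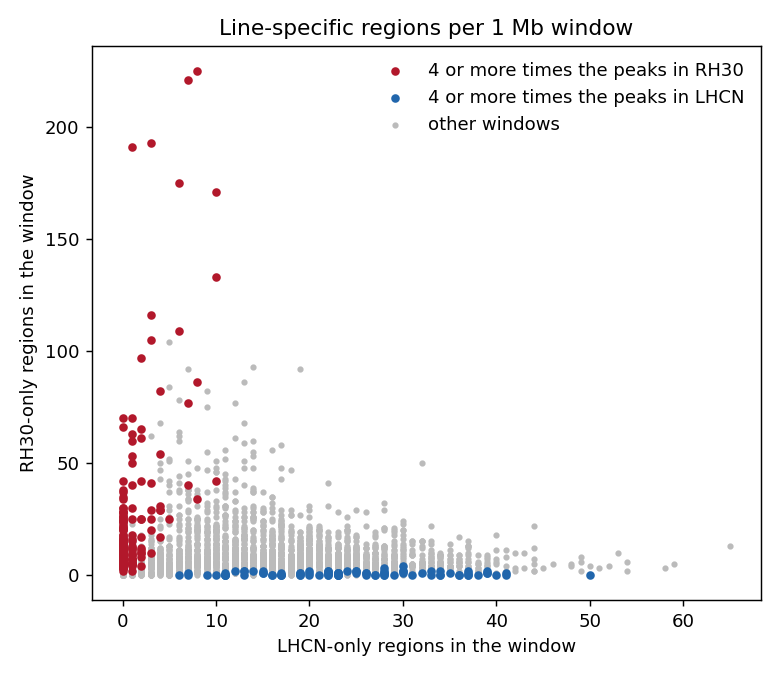
Number of RH30-only regions (y axis) against LHCN-only regions (x axis) in each 1 Mb window with 20 or more peaks, with windows of 4 or more times the peaks in RH30 in red, in LHCN in blue, and the rest in grey. The red windows climb to 225 RH30-only regions with few LHCN-only ones, whereas no window holds more than 65 LHCN-only regions.

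The block of RH30-dense windows with the most RH30-only regions lay on chromosome 6, and its 7 windows were matched in length only by a block on chromosome 2 described below. Peaks of the compared libraries were counted here in lists of 105136 peaks and those of the other libraries in lists of 93488. Between 68000001 and 75000000 it held 2504 regions, of which 1043 (41.7%) were RH30-only, 29 LHCN-only and 152 shared. The rest had another pattern, and RH30-only regions were 15.9% of all regions in the comparison. The RH30 DMSO libraries had 2070 and 1797 peaks there, against 227 and 218 in the LHCN vector libraries. The other RH30 libraries had 887 to 1892 peaks with a median of 1329, against 179 and 187 in the LHCN PAX3-FOXO1 libraries, without overlap. In lists of 93488 peaks, peaks covered 11.7% and 11.1% of the block in the RH30 DMSO libraries, against 1.42% and 1.44% in the LHCN vector libraries. The median shared region was 17.5 percentile points higher in RH30 than in LHCN. The single window with the most RH30-only regions of the genome, 225 of 491 (45.8%) with 8 LHCN-only, ran from 72000001 to 73000000 in this block.

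Chromosome 11 carried a pair of such blocks. The first, from 69000001 to 72000000, held 808 regions, of which 319 (39.5%) were RH30-only and 13 LHCN-only. It had 617 and 667 peaks in the RH30 DMSO libraries, against 106 and 109 in the LHCN vector libraries. The other RH30 libraries had 277 to 975 peaks, against 88 and 91 in the LHCN PAX3-FOXO1 libraries. The second, from 78000001 to 81000000, held 748 regions, of which 264 (35.3%) were RH30-only and 14 LHCN-only. It had 587 and 486 peaks in the RH30 DMSO libraries, against 50 and 46 in the LHCN vector libraries. Here the other RH30 libraries had 122 to 377 peaks with a median of 164.5, against 86 and 90 in the LHCN PAX3-FOXO1 libraries, and the RH30 DMSO lists trimmed to the same length had 450 and 382. The first block spread widely among RH30 libraries, with the highest counts in the libraries labelled shCtrl (926 and 975) and the lowest in a library labelled shKDM4B-813 (277).

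Other RH30-dense blocks were found on chromosomes 2, 17, 9, 22, 14 and 1. On chromosome 2, 76000001 to 83000000 held 431 regions, of which 138 (32.0%) were RH30-only, 4 LHCN-only and none shared. It had 340 and 238 peaks in the RH30 DMSO libraries, against 6 and 5 in the LHCN vector libraries. That stretch was almost bare of LHCN peaks, also with PAX3-FOXO1, where 7 and 4 were found, whereas the other RH30 libraries had 66 to 297. On chromosome 17, 71000001 to 73000000 held 140 RH30-only and 8 LHCN-only regions, and 21000001 to 23000000 held 110 and 4. On chromosome 22, 48000001 to 50000000 held 383 regions, of which 100 (26.1%) were RH30-only and none LHCN-only. It had 254 and 247 peaks in the RH30 DMSO libraries, against 3 and 3 in the LHCN vector libraries. The other RH30 libraries ranged there over 29 to 371 peaks, the highest again in the libraries labelled shCtrl. The 2 QC6352 libraries alone had 1116 and 1446 peaks in the chromosome 6 block, 593 and 758 and then 122 and 160 in the blocks of chromosome 11, 66 and 91 in the longer block of chromosome 2, and 29 and 51 in that of chromosome 22, all above the LHCN PAX3-FOXO1 values. The block on chromosome 9, from 139000001 to 140000000, held 341 regions, of which 109 (32.0%) were RH30-only and 6 LHCN-only.

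LHCN-dense blocks were smaller and came from fewer peaks. Over all regions of the comparison, 23.9% were LHCN-only. The leading block, on chromosome 8 from 119000001 to 121000000, held 132 regions, of which 1 was RH30-only, 82 (62.1%) LHCN-only and 16 shared. It had 21 and 23 peaks in the RH30 DMSO libraries, against 118 and 113 in the LHCN vector libraries. The other RH30 libraries had 6 to 25 peaks, against 88 and 91 in the LHCN PAX3-FOXO1 libraries. Blocks on chromosome 8 from 57000001 to 59000000 (68 LHCN-only and 1 RH30-only of 100), chromosome 12 from 126000001 to 128000000 (60 and 2 of 96), chromosome 5 from 143000001 to 145000000 (52 and 2 of 83) and chromosome 18 from 41000001 to 43000000 (52 and none of 84) followed. The window with the most LHCN-only regions, 65 of 135 with 13 RH30-only, ran from 238000001 to 239000000 on chromosome 2. There the other RH30 libraries had 45 to 78 peaks, against 78 and 84 in the LHCN PAX3-FOXO1 libraries. By share, LHCN-only regions peaked at 17 of 20 (85%) in the window from 7000001 to 8000000 on chromosome 8, and RH30-only regions at 20 of 28 (71.4%) from 116000001 to 117000000 on chromosome 5. Covered sequence stayed low, for instance 0.483% and 0.506% in the RH30 DMSO libraries, against 2.39% and 2.35% in the LHCN vector libraries, for the leading block.

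Window by window, the peak counts of the 8 other RH30 libraries were compared with those of the 2 LHCN PAX3-FOXO1 libraries. No window of 2713 (0% in either direction) passed an adjusted p of 0.05 by exact permutation with Benjamini-Hochberg adjustment, at a smallest adjusted p of 0.0534, whereas 1353 windows had an unadjusted p under 0.05. The smallest p that 45 ways of placing 2 LHCN libraries allow is 0.0222. Over all 2713 windows the mean count was higher in the other RH30 libraries in 957 (35.3%) and lower in 1748 (64.4%). It was higher in 179 of the 187 RH30-dense windows (95.7%) and lower in 88 of the 88 LHCN-dense windows. Without the 6 hairpin libraries it was higher in the QC6352 libraries in 902 of all windows (33.2%) and in 170 of the RH30-dense ones (90.9%), and lower in 1777 of all windows (65.5%) and in the 88 LHCN-dense ones.

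Line-specific regions also came in runs, that is, stretches in which each line-specific region belonged to the same line, while shared regions could lie between them. Most runs were short, with a median of 1 region for RH30-only and 2 for LHCN-only. Runs of 10 or more held 37.2% of RH30-only regions (444 runs) and 47.9% of LHCN-only regions (1158 runs). There were 28683 RH30-only and 43190 LHCN-only regions in all, so these shares partly repeat that imbalance. The longest RH30-only run had 214 regions in 1.31 Mb at chr6:70598389-71913176. Within it lay 45 shared regions, and 48 and 49 peaks of the LHCN vector libraries. The longest LHCN-only run had 101 regions in 2.19 Mb at chr8:118683978-120875648. Within it lay 18 shared regions, and 22 and 21 peaks of the RH30 DMSO libraries. Peaks in runs were counted in lists trimmed to 93488 peaks. The 3 longest RH30-only runs outside RH30-dense windows were on chromosomes 13 and 2 and were looked for after the dense windows had been seen. On chromosome 13, neighbouring runs of 67 regions at chr13:40816442-40975187 and 80 regions at chr13:40983472-41187746 lay next to each other. The second of these had 122 and 102 peaks in the RH30 DMSO libraries, 56 to 128 in the other RH30 libraries, 12 and 12 in the LHCN PAX3-FOXO1 libraries, and 8 and 9 in the LHCN vector libraries. On chromosome 2 a run of 71 regions lay at chr2:15813606-16703944, with 95 and 91 peaks in the RH30 DMSO libraries, 69 to 126 in the other RH30 libraries, 41 and 33 in the LHCN PAX3-FOXO1 libraries, and 6 and 6 in the LHCN vector libraries. As background, FOXO1 lies on chromosome 13, and PAX3 and MYCN, a proto-oncogene of neural and muscle tumours, lie on chromosome 2. Their positions on these chromosomes were not used, so a common chromosome does not place any of them in or near a run. No gene was assigned to any region, since no annotation of the hg19 build was used here.

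Chromosomes differed in the balance of the classes. RH30-only regions outnumbered LHCN-only regions on 6 chromosomes and the reverse held on 17. Over the whole genome there were 28683 RH30-only and 43190 LHCN-only regions, so these counts partly repeat that imbalance. Chromosome 9, for example, was among the 17 at 17.7% RH30-only and 20.4% LHCN-only, against 15.9% and 23.9% over all regions. The highest ratio of RH30-only to LHCN-only regions was 1.71 on chromosome 17, where 1652 regions were RH30-only and 964 LHCN-only, followed by 1.43 on chromosome 22 and 1.31 on chromosome 14. Chromosomes 20, 21 and 11 had ratios of 1.25, 1.12 and 1.09. Without the RH30-dense windows the ratio fell to 0.764 on chromosome 11 and to 0.859 on chromosome 21, which left 4 chromosomes with more RH30-only regions, at ratios of 1.40 on 17, 1.18 on 22, 1.11 on 14 and 1.10 on 20. The lowest ratios were 0.266 on chromosome 8, with 683 RH30-only and 2563 LHCN-only regions, and 0.291 on chromosome 3, with 1018 and 3499. Chromosome 6 had a ratio of 0.631, and of 0.283 without its RH30-dense windows. Chromosome 19 had the highest share of shared regions, 38.1% of its 3930.

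**Figure D4:**
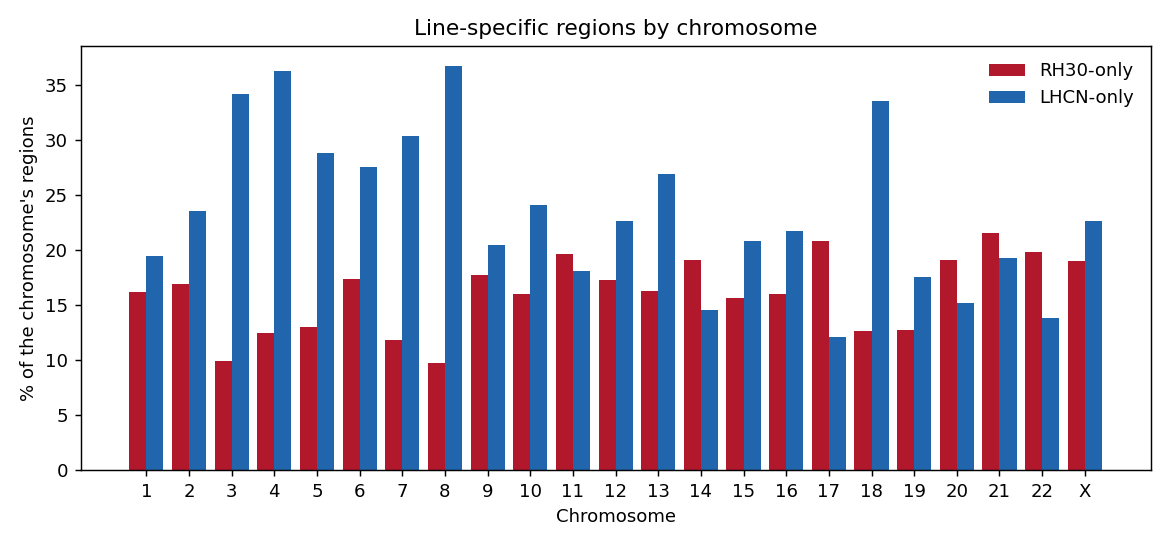
RH30-only (red, left bar) and LHCN-only (blue, right bar) regions as a percentage of all regions on each chromosome. The RH30-only bar is the taller on chromosomes 11, 14, 17, 20, 21 and 22, and the LHCN-only bar is the taller on the other 17, by most on chromosomes 3, 4 and 8. Over all regions the shares are 15.9% RH30-only and 23.9% LHCN-only.

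The chromosome balance was examined again in the libraries that the classes did not use, as the share of a library's peaks on each chromosome. Of 23 chromosomes, 5 (21.7%) had a higher share and 7 (30.4%) a lower share in the 8 other RH30 libraries than in the 2 LHCN PAX3-FOXO1 libraries at an adjusted p under 0.05 (exact permutation test over libraries, two-sided, Benjamini-Hochberg over 23 chromosomes, adjusted p = 0.0426 for each). The higher ones were 9, 11, 14, 17 and 20, and the lower ones 3, 4, 5, 7, 8, 10 and 18. Chromosome 17 held 4.43% to 9.05% of peaks in the other RH30 libraries, with a median of 7.06%, against 3.21% and 3.23% in the LHCN PAX3-FOXO1 libraries. In the compared libraries it held 5.39% and 5.42% with DMSO, against 3.52% and 3.57% with vector. Chromosome 3 held 3.49% to 5.58% in the other RH30 libraries, with a median of 4.48%, against 7.15% and 7.20% in the LHCN PAX3-FOXO1 libraries. Chromosome 8 held 2.18% to 3.35%, with a median of 2.70%, against 4.74% and 4.87%.

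These chromosome calls sat at the limit of the design. Without the RH30-dense windows no chromosome passed, at a smallest adjusted p of 0.0568, while 6 higher and 6 lower ones had an unadjusted p under 0.05, and all 12 chromosomes kept their direction. With the 50000 strongest peaks none passed either, with 6 higher and 5 lower at an unadjusted p under 0.05. Without the 6 hairpin libraries the comparison was 2 against 2 and could not pass. Shares on a chromosome add to a fixed total, so a gain on some chromosomes lowers the rest.

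The classes held in the other libraries of the same line to different degrees. RH30-only regions had a peak in 50.8% to 68.2% of cases in the 8 other RH30 libraries, with a median of 60.0% and a mean of 60.3% ± 5.41 (SD, n = 8), against 17.2% and 15.99% in the LHCN PAX3-FOXO1 libraries, with a mean of 16.6% ± 0.851 (SD, n = 2). The groups did not overlap, and the difference of 43.7 percentage points had p = 0.0222 (exact permutation test, two-sided, adjusted p = 0.0444 over 4 measures), the smallest p the design allows. LHCN-only regions had a peak in 2.64% to 14.8% of cases in the other RH30 libraries, with a mean of 7.95% ± 4.54 (SD, n = 8), against 59.5% and 62.2% in the LHCN PAX3-FOXO1 libraries, with a mean of 60.8% ± 1.94 (SD, n = 2). That difference was -52.9 percentage points (exact permutation test, two-sided, p = 0.0222, adjusted p = 0.0444). The test compares libraries by line with treatments pooled, and the 2 LHCN libraries both carry the fusion protein. Leaving out any 1 RH30 library other than the one labelled shCtrl replicate 1 raised the adjusted p of both classes to 0.0556 by the same exact permutation test, with differences of 42.6 to 45.05 and of -53.9 to -52.1 points.

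Without the 6 hairpin libraries the shares of RH30-only regions were 50.8% and 58.6% with QC6352, against 17.2% and 15.99% with PAX3-FOXO1, a difference of 38.1 points. For LHCN-only regions they were 10.5% and 10.6% with QC6352, against 59.5% and 62.2%, a difference of -50.3 points. At 2 against 2 the smallest exact permutation p is 0.33, so neither could pass. Inside RH30-dense windows the RH30-only regions had a peak in 47.5% to 70.5% of cases in the other RH30 libraries, against 8.10% and 6.56% in the LHCN PAX3-FOXO1 libraries. Outside them the shares were 51.4% to 68.3%, against 19.1% and 17.9%. The difference without the dense windows was 41.8 points, against 43.7 with them.

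Shared regions were found in 74.9% to 88.8% of cases in the other RH30 libraries, with a median of 85.8%, against 93.7% and 94.4% in the LHCN PAX3-FOXO1 libraries. The difference of -10.3 points did not pass after adjustment (exact permutation test, two-sided, p = 0.0444, adjusted p = 0.0593). It did pass by the same exact permutation test with lists as deposited, at -12.3 points (adjusted p = 0.0296), and without the library labelled shCtrl replicate 1, at -9.07 points (adjusted p = 0.037). The lowest values, 74.9% and 75.7%, were in the libraries labelled shCtrl. These libraries also had the lowest shares of LHCN-only regions with a peak, 2.66% and 2.64%, whereas the libraries labelled shKDM4B-813 had the highest, 14.8% and 11.5%.

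**Figure D5:**
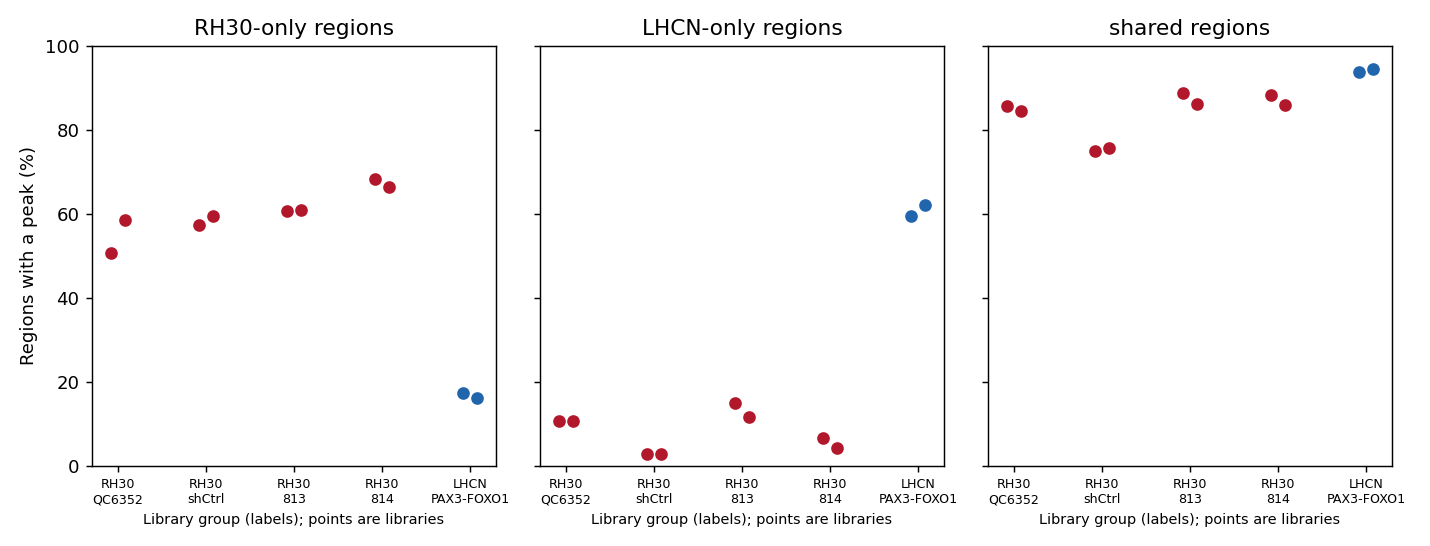
Percentage of RH30-only, LHCN-only and shared regions with a peak in each of the 10 libraries that the classes were not built from (1 point per library), for RH30 groups by label (red) and LHCN PAX3-FOXO1 (blue), all lists trimmed to 93488 peaks. The RH30 points lie at 50.8% to 68.2% against 17.2% and 15.99% for RH30-only regions, and at 2.64% to 14.8% against 59.5% and 62.2% for LHCN-only regions.

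Recovery in other libraries depended on strength. RH30-only regions under the 25th percentile had a peak in a median of 38.8% of cases across the other RH30 libraries, and those at or above the 90th percentile in 99.9%. The share in the LHCN PAX3-FOXO1 libraries also climbed, with 6.71% and 5.72% in the weakest bin and 45.4% and 43.2% in the strongest. LHCN-only regions behaved alike in their own line, with 33.3% and 35.6% in the LHCN PAX3-FOXO1 libraries in the weakest bin and 100.0% in both in the strongest. In the other RH30 libraries their median share was 5.94% in the weakest bin and 14.7% in the strongest. The strongest RH30-only sites were thus more often peaks in fusion-expressing LHCN than the weak ones were, but these bins share libraries and were not compared by a test. Regions with a weaker peak in a deposited LHCN vector list were not set aside in these bins, and their share is not given by bin.

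Without the 6 hairpin libraries, RH30-only regions had a peak in 30.1% and 41.4% of cases in the QC6352 libraries in the weakest bin and in 96.4% and 98.3% in the strongest, and LHCN-only regions in 8.56% and 7.52% and then in 12.2% and 17.6%.

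Counting library by library, 6808 RH30-only regions (23.7%) had a peak in all 8 other RH30 libraries and 2515 (8.77%) in none. Both LHCN PAX3-FOXO1 libraries had a peak at 3882 RH30-only regions (13.5%), and 1663 (5.80%) had one in all 8 other RH30 and both LHCN PAX3-FOXO1 libraries. Among the 20647 RH30-only regions with no peak in either deposited LHCN vector list, 1521 (7.37%) had a peak in both LHCN PAX3-FOXO1 libraries. Without the hairpin libraries, 12327 RH30-only regions (43.0%) had a peak in both QC6352 libraries and 9635 (33.6%) in neither. The share of RH30-only regions open in LHCN with the fusion was therefore lower when weak vector peaks were set aside. Of LHCN-only regions, 23358 (54.1%) had a peak in both LHCN PAX3-FOXO1 libraries and 14005 (32.4%) in neither, while 23 (0.0533%) had one in all 8 other RH30 libraries and 30744 (71.2%) in no other RH30 library. Trimming to 93488 peaks lowered the counts of regions with a peak in these libraries and raised the counts of regions with none. In the deposited LHCN PAX3-FOXO1 lists, 86.0% and 90.1% of LHCN-only regions had a peak, and 40.9% and 39.0% of RH30-only regions. In the other RH30 lists as deposited, the shares were 4.27% to 22.3% of LHCN-only and 55.5% to 76.1% of RH30-only regions.

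The 10 strongest RH30-only regions were wide and recurred throughout RH30. They were 784 to 8967 bp wide, at percentiles of 99.8 to 99.9, and all 10 had a peak in all 8 other RH30 libraries. In the deposited LHCN vector lists 4 of the 10 had no weaker peak, and the other 6 had one in at least 1 list. The first, chr12:58679218-58683468, had authors' folds of 89.7 and 89.9 in the RH30 DMSO lists and 66.2 to 169.8 in the other RH30 lists, with no peak among those kept in either LHCN PAX3-FOXO1 list, and weaker peaks in both deposited LHCN vector lists. Others at chr12:58357766-58362106 and chr12:58634019-58642985 lay in the same segment, with folds of 75.1 and 74.3 and of 75.1 and 72.3. Chromosome 11 gave chr11:70483017-70484757, inside the block from 69000001 to 72000000, with folds of 83.0 and 76.7. Chromosome 14 gave chr14:99501567-99503224 with folds of 87.0 and 69.3. In these 5 regions, all in RH30-dense windows, at most 1 LHCN PAX3-FOXO1 library had a peak.

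Chromosome 2 held 4 of the 10. At chr2:79944380-79945163 the folds were 99.6 and 75.4, the highest of the 10 in the first DMSO list, inside the nearly bare stretch from 76000001 to 83000000. It had a peak of fold 8.78 in 1 LHCN PAX3-FOXO1 list and weaker peaks in both deposited LHCN vector lists. The neighbouring sites chr2:16028721-16032081 and chr2:16384350-16387063 fell in the run of 71 RH30-only regions described above. The first of them had folds of 76.7 and 73.0 in the RH30 DMSO lists and 29.7 and 35.2 in the LHCN PAX3-FOXO1 lists. The second had 76.1 and 65.9 in the RH30 DMSO lists and 40.03 and 42.0 in the LHCN PAX3-FOXO1 lists. Neither site had a peak of any strength in the deposited LHCN vector lists, so both were open in RH30 and in LHCN with the fusion, and not called in LHCN with vector. At chr2:70823264-70824752 and chr9:66488876-66489999 peaks were also present with PAX3-FOXO1, but weaker peaks lay in both LHCN vector lists.

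The 10 strongest LHCN-only regions were narrower and spread over 6 chromosomes. They were 448 to 1321 bp wide, at percentiles of 99.2 to 99.8, and none lay in an RH30-dense window. None had a weaker peak in the deposited RH30 DMSO lists, of which only replicate 2 had lost peaks in trimming. All 10 had a peak in both LHCN PAX3-FOXO1 libraries. The first, chr1:177178092-177178931, had a peak in 5 of the 8 other RH30 lists with authors' folds of 5.94 to 31.2, against 108.2 and 127.3 in the LHCN PAX3-FOXO1 lists and 169.6 and 144.2 in the LHCN vector lists. Chromosome 7 gave 4 of the 10, namely chr7:51191124-51191901, chr7:137607986-137608636, chr7:34299822-34300333 and chr7:143088337-143089657, with LHCN vector folds of 112.5 to 129.4. The regions chr7:137607986-137608636, chr10:100120757-100121453 and chr4:156679814-156680701 had no peak in any of the 8 other RH30 lists. At chr4:156679814-156680701 the folds were 118.3 and 130.4 with PAX3-FOXO1, against 119.0 and 114.3 with vector.

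The 10 strongest shared regions had peaks in all 14 libraries and far higher folds. The first, chr2:33141196-33141694, had folds of 2235 and 3339 in the RH30 DMSO lists and 2109 and 2046 in the LHCN vector lists. The next, chr1:567519-570276, had 1949 and 2004 in the RH30 DMSO lists and 1999 and 1738 in the LHCN vector lists. The others were at 2 further sites on chromosome 1, 2 each on chromosomes 10 and 21, and 1 each on chromosomes 3 and 19. No list of repeat-rich or otherwise unreliable parts of hg19 was used here, and whether the authors applied one is not given in the sources used here, so these sites are named as the top of the ranking only.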

How the data were processed

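The 14 ATAC-seq libraries form 7 groups of 2, grouped and numbered by their titles. The genome build was hg19, and MACS2 2.1.1, SAMtools 1.3.1, Picard 1.65 and BWA 0.7.12-r1039 are named in the submitters' processing notes. How they were set, which reads were removed and whether positions were moved for the Tn5 cut were not stated in those notes or the labels. The authors deposited 1 peak list per library, with a score (not used), a fold ratio over background, and −log10 p and −log10 q. Peaks were thus called per library. Read depth is unknown, so no counting interval is given.

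Lists were trimmed by −log10 q (ties by fold, then position) to 105136 peaks for the 4 compared libraries, or 93488 for measures in all 14, and merged with Python 3.11.15, numpy 2.4.6 and pandas 2.3.3. The code was tested on simulated data. Libraries not used for the classes were compared by exact permutation, two-sided, with Benjamini-Hochberg adjustment. The regions named are the 10 per class with the highest lowest within-list percentile. Windows named are the 5 per class with the most regions, or with the highest share among windows of 20 or more regions, and the leading dense blocks and longest runs were named after their values were seen. The members and lists were chosen with earlier results of these data known.

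Same-numbered libraries of the lines shared 0.319 and 0.317 of their unions and crossed numbers 0.320 and 0.316, so replicate numbers only name libraries. No hg19 genome or annotation was used here, so genes, base composition, motifs, promoters and cell-type markers were not analysed here and no sequence is printed. Alternatives tried were other thresholds, overlaps and list lengths, and leaving out libraries or windows.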

Additional observations from a re-analysis of the deposited data

How the results depend on the processing

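The counts of RH30-only, LHCN-only and shared regions stayed within 1.5 times of the reported ones with 50% cover, fixed windows on summits, autosomes only, and without RH30-dense windows, a total of 12 values. As deposited, LHCN-only regions numbered 83139. At −log10 q of 10 or more, RH30-only regions numbered 10510 and LHCN-only regions 75033. The 50000 strongest peaks gave 17002 RH30-only, 18757 LHCN-only and 23926 shared regions. Requiring such a strong peak in one line and no deposited peak in the other gave 6495, 12958 and 23923. Leaving out 1 of the 4 libraries gave 30075 to 51753 RH30-only regions, with 51753 without RH30 DMSO replicate 1 and 51377 without replicate 2, and 47018 to 50017 LHCN-only and 44658 to 47432 shared regions. With 1 RH30 DMSO library left out, RH30-only regions outnumbered LHCN-only ones (47018 without replicate 1 and 47420 without replicate 2).

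Leaving out 1 of the 10 other libraries gave differences, RH30 minus LHCN PAX3-FOXO1, of 42.6 to 45.05 points for RH30-only, -54.3 to -51.5 for LHCN-only and -11.0 to -9.07 for shared regions, and of -47.6 to -25.1 bp in median width. Exact permutation p, adjusted over the 4 measures, was 0.0556 for RH30-only and LHCN-only regions (0.0278 unadjusted, the smallest possible) without any 1 RH30 library, which ended both calls, except without the library labelled shCtrl replicate 1 (0.037). Without either PAX3-FOXO1 library it was 0.222 (0.111 unadjusted, the smallest possible). For shared regions it ranged from 0.037, with a difference of -9.07 points without shCtrl replicate 1, to 0.444. Shared regions also passed with lists as deposited (-12.3 points, adjusted exact permutation p = 0.0296). Without the 6 hairpin libraries, added after seeing the data, the differences were 38.1, -50.3 and -8.93 points with an unadjusted exact permutation p of 0.33, the smallest possible, and -3 bp in width. Under the replicate block (labels permuted within replicate number) the differences of 43.7 and -52.9 points had an exact permutation p of 0.04, the smallest possible. The adjusted exact permutation p was 0.08, so both calls were lost at the limit of the design, which says nothing of a replicate effect. The blocked region counts were 28683, 43190 and 43208. The width difference turned to 14.75 bp with lists as deposited. The cause was not tested.

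Chromosome alternatives were also added after seeing the data. The 5 higher and 7 lower chromosomes became 0 and 0 by the exact permutation test with the 50000 strongest peaks (6 and 5 at an unadjusted p under 0.05), without RH30-dense windows (6 and 6) and without the hairpin libraries (0 and 0 at 2 against 2). Signs turned on chromosome 15 as deposited (0.0403 points) and with the 50000 strongest peaks (0.0205), on X with the 50000 strongest (0.342), and on 12 without the hairpin libraries (-0.156), none of which passed. Base composition, gene starts, motifs and their alternatives were not run. Depth is unknown, and a missing peak means only that none passed the limit.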
